A study of Solanum lycopersicum with 12 samples.

Results

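The genes examined here make, break down or respond to abscisic acid (ABA) in roots of tomato (Solanum lycopersicum). They are 9 of the 35768 gene models for which expression was given, chosen by identifier: NCED1, NCED2, ZEP, SIT and FLC for synthesis, CYP707A1 and CYP707A2 for breakdown, and AREB1 and TAS14 for response. The rule goes by gene function and holds no measured value, but it was set with earlier results of these data known. Messenger RNA was sequenced from roots of plants 20 days old, in 4 groups of 3 biological replicates, all kept in solution at pH 4.7. The groups were the slstop1 mutant with 60 µM aluminium (Al), wild type (WT) with 60 µM Al, slstop1 with 0 µM Al, and WT with 0 µM Al. In slstop1 the tomato homologue of STOP1 is disrupted, a zinc finger transcription factor needed for tolerance of acid soil and Al in Arabidopsis. The nature of the mutation, the number of mutant lines, the tomato cultivar and the length of the Al exposure are details not given in the sources used here.

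ABA is a plant hormone made from carotenoids. Zeaxanthin epoxidase (ZEP) prepares the epoxycarotenoid precursors, and the dioxygenases of the NCED family cleave them to xanthoxin, the step that usually limits the rate of synthesis. The last step, oxidation of abscisic aldehyde, needs an aldehyde oxidase (affected in the sitiens mutant, SIT) and a sulfurase that activates its molybdenum cofactor (affected in flacca, FLC). Hydroxylases of the CYP707A family start ABA breakdown. Bound ABA receptors hold back PP2C phosphatases, which frees SnRK2 kinases to activate bZIP factors such as AREB1, and these switch on protective proteins such as dehydrins. In roots the hormone is known for its part in the response to water shortage and salt.

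Expression values, for which no unit is named, were taken as FPKM, fragments per kilobase of transcript and of library total. On that reading, levels of different genes can be compared per length. Absolute depth is unknown. A gene was tested if it reached 1 FPKM in at least 3 of the 12 libraries, which 15903 did. Differences are on the scale of log2(FPKM + 1), which understates the change of genes near 1 FPKM, and adjusted p-values are from limma over all tested genes, two-sided. Of the 9 members 5 were tested: NCED1, NCED2, FLC, CYP707A2 and TAS14. Members such as NCED2 passed this filter through the groups in which they were high, so the number of tested members that changed says nothing about the set.

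A few features of the libraries bear on all values. SlSTOP1, FER and the leaf genes were taken by identifiers recalled from published nomenclature, which no annotation at hand could check. SlSTOP1 itself lay between 27.7 and 30.0 FPKM in slstop1 with Al and between 80.8 and 88.6 FPKM in WT with Al. Without Al it lay between 33.5 and 39.8 FPKM in slstop1 and between 56.0 and 79.2 FPKM in WT. The 10 most abundant genes held 10.8 to 11.7% of the summed FPKM in slstop1 with Al, 6.87 to 8.20% in WT with Al and 5.08 to 6.60% in the libraries without Al, and a larger share of abundant genes lowers every other FPKM. The median log2 difference of all tested genes was -0.46 for Al in slstop1, -0.28 for Al in WT, -0.16 for slstop1 against WT with Al and 0.01 without Al. The library least like its group was replicate 3 of WT without Al, with a mean Spearman correlation of 0.917 to the other libraries of that group. As a check of the labelled tissue, 2 of 7 leaf photosynthesis genes reached 1 FPKM in any library and 2 were listed at 0 in all. Their summed level was 56.6 to 76.9 FPKM in slstop1 with Al, 13.5 to 27.1 FPKM in WT with Al, 9.48 to 46.5 FPKM in slstop1 without Al and 13.8 to 42.8 FPKM in WT without Al. FER, a regulator of iron uptake in roots, stood at 7.20 to 7.97 FPKM in slstop1 with Al, 27.4 to 60.5 FPKM in WT with Al, 25.3 to 36.3 FPKM in slstop1 without Al and 42.1 to 56.8 FPKM in WT without Al. It was called lower for Al in slstop1 (log2 -1.89) and for slstop1 against WT with Al (log2 -2.45), in the same group in which the summed leaf genes were highest. Only 1 leaf gene was tested, and it was called in neither comparison on the FPKM scale (log2 1.45 and 1.625). For Al in slstop1 that leaf gene was called higher after median-of-ratios scaling (log2 1.91) and quantile normalisation (log2 1.62). The part of these shifts in the results below was not tested, and in whole roots fewer cells of a type cannot be told apart from less RNA per cell.

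With Al, both NCED genes rose and CYP707A2 fell, in both genotypes. NCED1 (Solyc07g056570.1, chromosome 7), the dioxygenase affected in the ABA-deficient notabilis mutant, stood at 5.14, 3.46 and 4.88 FPKM in slstop1 with Al, against 1.23, 1.56 and 0.52 FPKM in slstop1 without Al. In WT it stood at 9.29, 7.72 and 8.13 FPKM with Al and at 1.09, 0.85 and 0.30 FPKM without Al. Every library with Al lay above every library without it, as in 26.2% of all tested genes for slstop1 and 22.7% for WT, and the WT libraries with Al lay above those of slstop1. The ratio of group means was 4.07 for Al in slstop1 and 11.2 for Al in WT. On the log2 scale NCED1 rose by 1.40 ± 0.247 (SE; limma adjusted p = 0.00039) in slstop1 and by 2.45 ± 0.247 (adjusted p = 9.98e-06) in WT.

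NCED2 (Solyc08g016720.1, chromosome 8), a second dioxygenase of the family, had lower levels than NCED1 in every library. It stood at 4.07, 2.30 and 3.06 FPKM in slstop1 with Al, against 0.22, 0.38 and 0.25 FPKM in slstop1 without Al. In WT it stood at 0.85, 1.47 and 1.21 FPKM with Al and at 0.44, 0.16 and 0.23 FPKM without Al. Here too the libraries with Al lay above those without, as in 26.2% of all tested genes for slstop1 and 22.7% for WT. The higher values of NCED2 with Al, however, belonged to slstop1. The ratio of group means was 11.1 for Al in slstop1 and 4.25 for Al in WT. On the log2 scale NCED2 rose by 1.67 ± 0.198 (limma adjusted p = 2.06e-05) in slstop1 and by 0.77 ± 0.198 (adjusted p = 0.00593) in WT. NCED1 and NCED2 are paralogs, and how reads that match both were assigned is not given in the sources used here.

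CYP707A2 (Solyc08g005610.3, chromosome 8), an ABA hydroxylase, was the member with the highest mean level over the 12 libraries, 6.96 FPKM. It stood at 0.82, 0.47 and 0.65 FPKM in slstop1 with Al, against 11.2, 15.2 and 12.2 FPKM in slstop1 without Al. In WT it stood at 1.53, 2.05 and 0.86 FPKM with Al and at 16.3, 18.3 and 3.81 FPKM without Al. The libraries with Al lay below all those without, as in 49.8% of all tested genes for slstop1 and 40% for WT. The low value of 3.81 FPKM belongs to that WT library least like its group. On the log2 scale CYP707A2 fell in both genotypes, with a difference of -3.07 ± 0.439 (limma adjusted p = 8.44e-05) in slstop1 and -2.27 ± 0.439 (adjusted p = 0.000959) in WT. Without replicate 3 of WT without Al, the difference in WT was -2.91 (limma adjusted p = 4.64e-06).

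**Figure D1:**
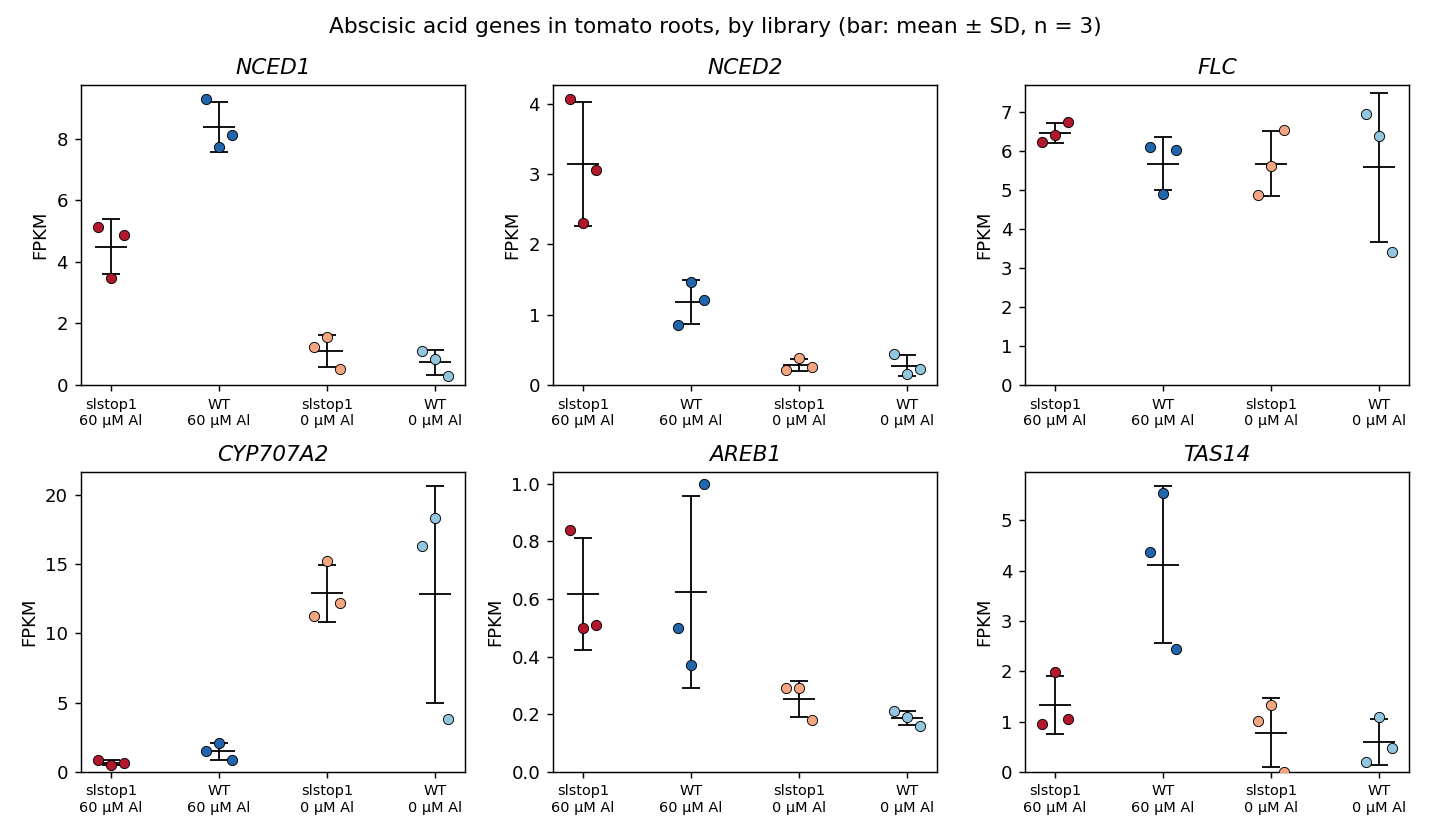
FPKM of 6 members in each library, 1 panel per gene, with a linear axis from 0. Points are libraries and bars are the mean ± SD of 3; NCED1 and NCED2 are high and CYP707A2 is low in all libraries with Al, NCED1 and TAS14 are highest in WT with Al, and NCED2 is highest in slstop1 with Al.

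Of the other synthesis genes, FLC did not pass the test and ZEP and SIT were listed at or near 0. FLC (Solyc07g066480.3, chromosome 7), which serves all enzymes that need the sulfurated molybdenum cofactor, stood at 6.22, 6.39 and 6.72 FPKM in slstop1 with Al and 4.86, 5.61 and 6.53 FPKM in slstop1 without Al. In WT it stood at 6.09, 4.89 and 6.02 FPKM with Al and at 6.95, 6.37 and 3.40 FPKM without Al, where replicate 3 was again the lowest. The groups with and without Al overlapped in both genotypes. The log2 difference for Al was 0.17 ± 0.219 (limma adjusted p = 0.524) in slstop1 and 0.06 ± 0.219 (adjusted p = 0.828) in WT. FLC was called higher with Al in slstop1 after median-of-ratios scaling (log2 0.57, limma adjusted p = 0.0163), and after quantile normalisation in slstop1 (log2 0.87, adjusted p = 0.00149) and in WT (log2 0.47, adjusted p = 0.0431). Without replicate 3 of WT without Al, its difference in WT was -0.20 (limma adjusted p = 0.29).

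ZEP (Solyc02g090890.3, chromosome 2) was listed at 0 in all 6 slstop1 libraries. In WT it read 0.61, 0 and 0.21 FPKM with Al and 0, 1.10 and 0.04 FPKM without Al, so the WT groups overlapped. SIT (Solyc01g009230.3, chromosome 1) was listed at 0 in all 12 libraries. Of the 35768 gene models, 10712 were listed at 0 in all 12 libraries. In 328 a group held both a library at 0 and one at 10 FPKM or above, a pattern that ZEP and SIT do not have. Whether a listed 0 is a failed estimate was not tested, and the levels of ZEP and SIT cannot be read as absence of these enzymes.

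The other hydroxylase, CYP707A1 (Solyc04g078900.3, chromosome 4), was listed at 0 in 11 libraries and at 0.04 FPKM in replicate 1 of WT without Al. It lies close in identifier order to AREB1 on the same chromosome. Of the 7 gene models from AREB1 to CYP707A1, 3 were tested. Whether these zeros are failed estimates was likewise not tested, so the level of CYP707A1, and its part in the summed CYP707A level given below, are uncertain.

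Of the response genes, TAS14 (Solyc02g084850.3, chromosome 2), a dehydrin known in tomato to be induced by ABA and salt, rose with Al in WT. It stood at 0.95, 1.99 and 1.05 FPKM in slstop1 with Al, against 1.01, 1.33 and 0 FPKM in slstop1 without Al. In WT it stood at 4.38, 5.54 and 2.44 FPKM with Al and at 0.19, 1.09 and 0.48 FPKM without Al. The slstop1 groups overlapped, while the 3 WT libraries with Al lay above those of WT without Al, as in 22.7% of all tested genes. The log2 difference for Al was 0.45 ± 0.363 (limma adjusted p = 0.294) in slstop1 and 1.68 ± 0.363 (adjusted p = 0.00198) in WT. Without the slstop1 library listed at 0, replicate 3 without Al, the value in slstop1 was 0.079 (limma adjusted p = 0.851), and leaving out replicate 2 with Al or replicate 2 without Al gave 0.26 and 0.69. After quantile normalisation TAS14 was called in slstop1 too (log2 1.13, limma adjusted p = 0.00815).

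AREB1 (Solyc04g078840.3, chromosome 4), a bZIP factor that binds ABA-responsive promoter elements, stayed at or under 1 FPKM and was not tested. It stood at 0.84, 0.50 and 0.51 FPKM in slstop1 with Al, against 0.29, 0.29 and 0.18 FPKM in slstop1 without Al. In WT it stood at 0.50, 0.37 and 1 FPKM with Al and at 0.21, 0.19 and 0.16 FPKM without Al. All libraries with Al lay above all libraries without, at levels where the number of fragments behind a value is small and unknown. Among the 9153 gene models above 0 that were not tested, 5.3% had slstop1 groups and 5.44% had WT groups that did not overlap in this direction. With no filter on low values the log2 difference of AREB1 was 0.36 ± 0.138 (limma adjusted p = 0.0547) in slstop1 and 0.43 ± 0.138 (adjusted p = 0.028) in WT.

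For the Al response, then, NCED1 and NCED2 were called higher and CYP707A2 lower in slstop1, 3 of 5 tested members. In WT TAS14 was called higher as well, 4 of 5. Among all tested genes 66.8% were called for Al in slstop1 (21.3% higher, 45.5% lower) and 60.9% in WT (21.9% higher, 39% lower). With 5 members tested, some of them through the groups in which they were high, these shares allow no reading of the set. In the plot of both responses the members lie within the cloud of all tested genes. The 2 responses share no library.

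**Figure D2:**
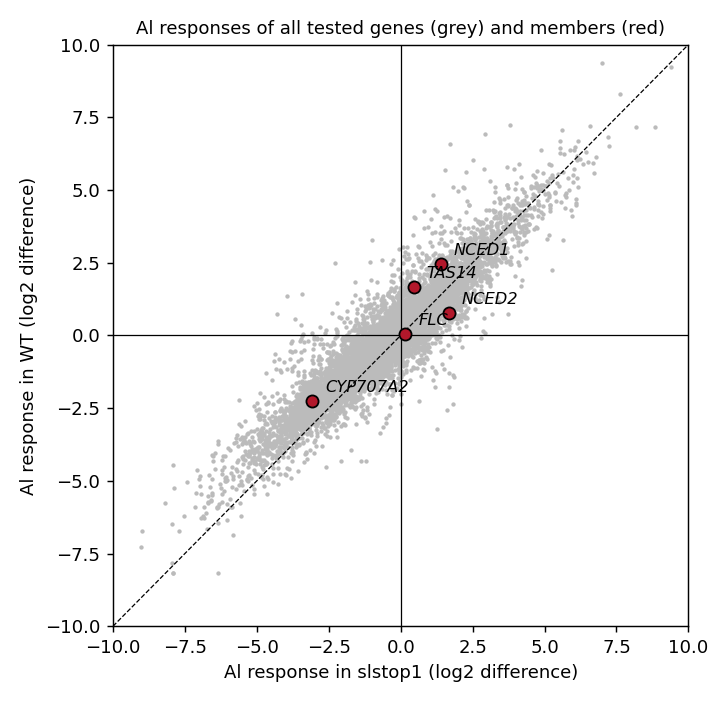
Log2 difference with Al in slstop1 (horizontal) and in WT (vertical) on the log2(FPKM + 1) scale, for all 15903 tested genes (grey) and 5 members (red), with the line of equal response dashed. NCED1 (1.40 in slstop1, 2.45 in WT) and TAS14 (0.45 and 1.68) lie above the line, and NCED2 (1.67 and 0.77) lies below it.

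The opposite changes of NCED and CYP707A2 could be set against each other within a library, where the scaling of the library cancels. The summed FPKM of NCED1 and NCED2 was 11.2, 12.3 and 12.2 times that of CYP707A1 and CYP707A2 in slstop1 with Al, and 0.129, 0.128 and 0.0631 times in slstop1 without Al. In WT it was 6.63, 4.48 and 10.9 times with Al and 0.0936, 0.0552 and 0.139 times without Al. The sum of CYP707A1 and CYP707A2 thus exceeded that of NCED1 and NCED2 in all 6 libraries without Al. In all 6 with Al the sum of NCED1 and NCED2 was the higher. The hydroxylase sum is nearly all CYP707A2, and the 3 other ABA hydroxylases listed below, 1 of them tested, are not in it. With Al the ratio in the 3 slstop1 libraries lay above that in the 3 WT libraries, by a small margin over replicate 3 of WT. No test was made of this ratio, which is a sum over chosen members, and transcript ratios do not give the level of the hormone.

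Without Al no tested member passed between genotypes. The largest log2 difference, slstop1 minus WT, was 0.26 ± 0.247 for NCED1 (limma adjusted p = 1). Group means were 1.10 ± 0.531 FPKM in slstop1 and 0.747 ± 0.405 FPKM in WT for NCED1, and 0.283 ± 0.0851 FPKM in slstop1 and 0.277 ± 0.146 FPKM in WT for NCED2 (SD, n = 3 each). CYP707A2 averaged 12.9 ± 2.08 FPKM in slstop1 and 12.8 ± 7.86 FPKM in WT. Of the 5 tested members, 0 were called by limma after adjustment and 0 had an unadjusted p under 0.05. Of all tested genes 0.176% were called, and 5.42% had an unadjusted p under 0.05. Without replicate 3 of WT without Al the log2 difference of CYP707A2 was -0.41 (limma adjusted p = 0.501) where it was 0.23 with it.

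With Al, NCED2 was the only tested member called between genotypes, and it was higher in slstop1. It averaged 3.14 ± 0.888 FPKM there and 1.18 ± 0.311 FPKM in WT (SD, n = 3), without overlap, as for 7.85% of all tested genes in that direction. This was a log2 difference of 0.92 ± 0.198 (limma adjusted p = 0.017). Among all tested genes 9.24% were called in this comparison, 1.12% higher and 8.12% lower in slstop1. The call for NCED2 was lost in 5 of 21 alternatives, with adjusted p between 0.00392 and 0.0672 over all 21. Among these were the fits without replicate 1 of slstop1 with Al (log2 0.76, limma adjusted p = 0.0664), without its replicate 3 (log2 0.92, adjusted p = 0.0516) and without replicate 1 of WT with Al (log2 0.80, adjusted p = 0.0672). With a pseudocount of 0.1 the difference was 1.34 (limma adjusted p = 0.0581), and with 5 it was 0.39 (adjusted p = 0.0142).

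NCED1 went the other way, averaging 4.49 ± 0.904 FPKM in slstop1 with Al and 8.38 ± 0.814 FPKM in WT with Al. These groups did not overlap, as for 26.8% of all tested genes in that direction. The log2 difference of -0.78 ± 0.247 did not pass (limma adjusted p = 0.0756; 0.0176 to 0.268 over the alternatives). It passed with a pseudocount of 5 (log2 -0.50, limma adjusted p = 0.0176) and without replicate 3 of WT without Al (log2 -0.78, adjusted p = 0.0384).

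TAS14 was also lower in its slstop1 values, 1.33 ± 0.574 FPKM in slstop1 with Al against 4.12 ± 1.57 FPKM in WT with Al. These groups did not overlap, as for 26.8% of all tested genes in that direction. The log2 difference of TAS14 was -1.11 ± 0.363 (limma adjusted p = 0.0858) and did not pass. It passed with a pseudocount of 5 (log2 -0.52, limma adjusted p = 0.0458). CYP707A2 averaged 0.647 ± 0.175 FPKM in slstop1 and 1.48 ± 0.597 FPKM in WT, with a log2 difference of -0.57 ± 0.439 (limma adjusted p = 0.483). FLC, averaging 6.44 ± 0.254 FPKM in slstop1 and 5.67 ± 0.674 FPKM in WT, had a log2 difference of 0.16 ± 0.219 (limma adjusted p = 0.716). Neither gene had overlapping groups, with CYP707A2 lower in slstop1 (as for 26.8% of all tested genes) and FLC higher (as for 7.85%).

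**Figure D3:**
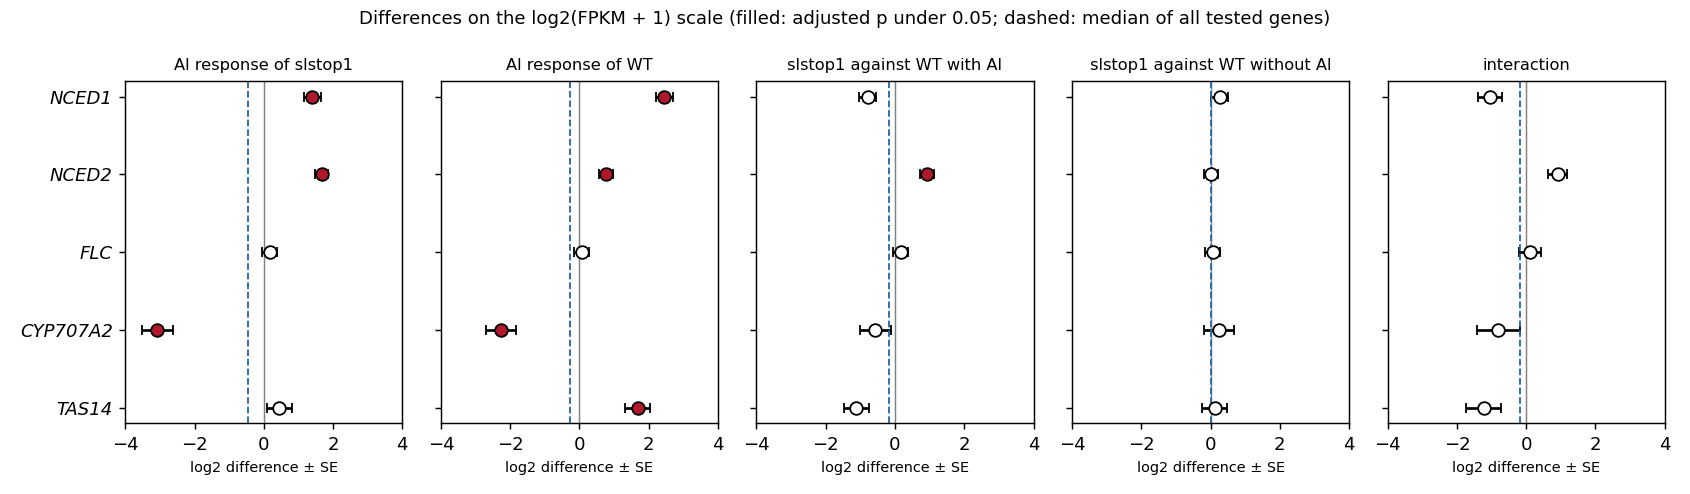
Log2 differences (± SE, limma) of the 5 tested members in each comparison; filled points passed an adjusted p of 0.05, and the dashed line is the median of all tested genes. NCED1, NCED2 and CYP707A2 passed for Al in slstop1, these 3 genes and TAS14 passed for Al in WT, and NCED2 alone passed between genotypes with Al.

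Whether the Al response differed between genotypes was asked by the interaction, the response in slstop1 minus that in WT. For NCED1 it was -1.04 ± 0.349 (limma adjusted p = 0.211), for NCED2 0.91 ± 0.28 (adjusted p = 0.174) and for TAS14 -1.23 ± 0.513 (adjusted p = 0.333). For CYP707A2 it was -0.80 ± 0.62 (limma adjusted p = 0.626), and -0.16 (adjusted p = 0.807) without replicate 3 of WT without Al. For FLC it was 0.10 ± 0.31 (adjusted p = 0.933). Of the 5 tested members, 0 passed after adjustment, and 3 (NCED1, NCED2 and TAS14) had an unadjusted limma p under 0.05, as had 13.2% of all tested genes. After adjustment 1.02% of all tested genes passed. A different response to Al in slstop1 was therefore not shown for any tested member. For TAS14, which passed for Al in WT and not in slstop1, the 2 responses are likewise not shown to differ.

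The share of NCED2 beside NCED1 separated the genotypes with Al, though this ratio was chosen after the values were seen and was not tested. The level of NCED2 divided by that of NCED1 in the same library was 0.792, 0.665 and 0.627 in slstop1 with Al and 0.0915, 0.190 and 0.149 in WT with Al. Without Al it was 0.179, 0.244 and 0.481 in slstop1 and 0.404, 0.188 and 0.767 in WT, where both genes were at or under 1.56 FPKM. The genotypes overlapped without Al. The sum of both genes was 7.64 ± 1.74 FPKM in slstop1 with Al and 9.56 ± 0.511 FPKM in WT with Al (SD, n = 3). These groups overlapped only through replicate 1 of slstop1 (9.21 FPKM) and replicate 2 of WT (9.19 FPKM).

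**Figure D4:**
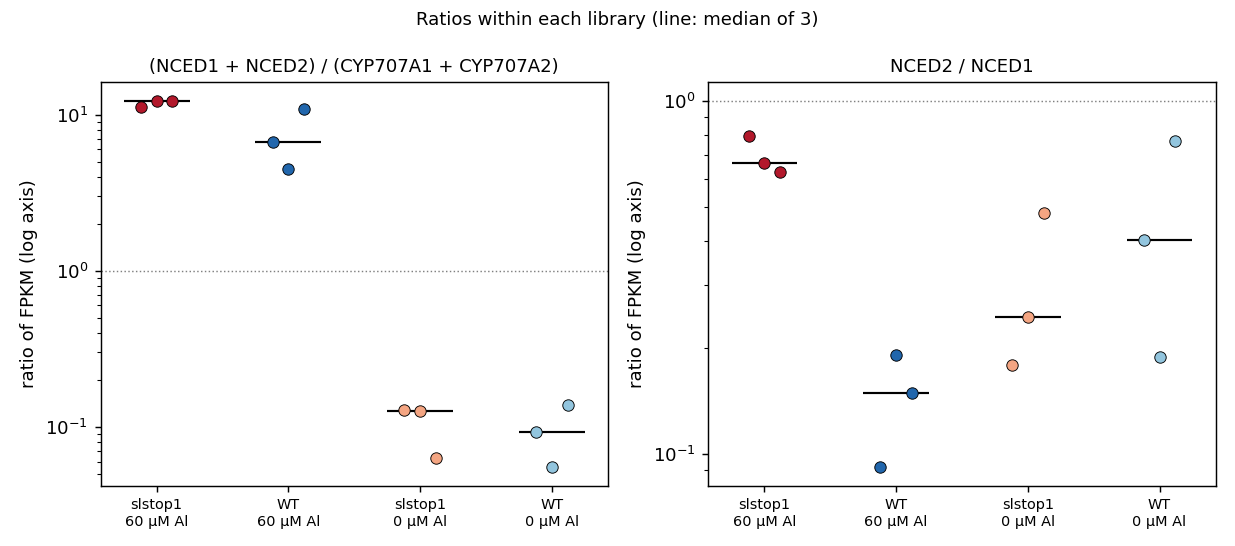
Ratios of FPKM within each library, on log axes, with the median of 3 as a line: NCED1 and NCED2 summed over CYP707A1 and CYP707A2 summed (left), and NCED2 over NCED1 (right). The left ratio lies above 4 in all libraries with Al and below 0.2 in all without, and the right ratio separates slstop1 (0.627 to 0.792) from WT (0.0915 to 0.190) only with Al.

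The other genes of the pathway were taken as 57 identifiers in 7 lists recalled from published nomenclature, which no annotation at hand could check. They are therefore given as counts, beside the medians for all tested genes above, and none is named. Of the 57, 40 were tested. For Al in slstop1 11 were called higher and 12 lower, and for Al in WT 9 higher and 10 lower. These are 57.5% and 47.5% of the 40, where 66.8% and 60.9% of all tested genes were called, so the counts show nothing particular to the pathway.

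Upstream of the members, 11 of 16 carotenoid pathway genes were tested. With Al 4 were higher and 1 lower in slstop1, and 3 were higher and 0 lower in WT, with median log2 differences of -0.03 in slstop1 and 0.18 in WT. In slstop1 the scalings gave 4 higher and 0 lower (median 0.38, median-of-ratios) and 7 higher and 0 lower (median 0.69, quantile), so the sign of the median there depends on the scaling. The only other ABA hydroxylase tested, of 3 listed, fell, as did CYP707A2, with a log2 difference of -3.17 in slstop1 and -2.16 in WT. Of 14 ABA receptor genes 12 were tested, and with Al 2 were higher and 7 lower in slstop1, and 1 was higher and 6 were lower in WT. Their medians were -0.55 in slstop1 and -0.68 in WT. After median-of-ratios scaling the receptor counts for Al were 3 higher and 4 lower in slstop1, and 2 higher and 5 lower in WT.

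Downstream of the receptors, 2 of the 5 tested PP2C phosphatase genes (of 8 listed) were higher with Al and 0 lower in each genotype, with medians of 0.10 in slstop1 and 0.59 in WT. After median-of-ratios scaling 3 were higher in slstop1 (median 0.53) and 2 in WT (median 0.60). After quantile normalisation 3 were higher in each, with medians of 0.71 in slstop1 and 0.81 in WT. Of 6 tested SnRK2 kinase genes 1 was lower with Al in each genotype and 0 were higher, and quantile normalisation added 1 higher in each. Both tested genes of 4 further bZIP factors were lower with Al in each genotype, a call that held for 0 of them in slstop1 after median-of-ratios scaling. Of 5 further dehydrin and late embryogenesis genes 3 were tested, and all 3 were higher with Al in each genotype, with medians of 2.56 in slstop1 and 2.44 in WT. Quantile normalisation left 2 of these 3 called in each genotype, and leaving out any single library with Al, or replicate 1 or 3 of slstop1 without Al, left 2 called in slstop1. Between slstop1 and WT with Al 4 of the 40 were called, 10% against 9.24% of all tested genes. All 4 were lower in slstop1 on the FPKM scale: 2 receptor genes, 1 carotenoid gene and 1 SnRK2 gene. The receptor counts depended on the scaling, with 2 higher and 1 lower after median-of-ratios scaling and 0 called after quantile normalisation. Limma called 0 of the 40 without Al and 0 for the interaction, where 3 and 4 had an unadjusted p under 0.05.

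The genes most like NCED1 and TAS14 over the 12 libraries were found by Pearson correlation of log2(FPKM + 1) among all tested genes, which mostly reflects the 4 group means. The closest to NCED1 was Solyc01g010700.3 on chromosome 1 (r = 0.988), at 2.90 ± 0.573 FPKM in slstop1 with Al, 3.99 ± 0.658 FPKM in WT with Al, 1.03 ± 0.39 FPKM in slstop1 without Al and 0.87 ± 0.295 FPKM in WT without Al (SD, n = 3 each). The closest to TAS14 was Solyc07g045340.3 on chromosome 7 (r = 0.953), at 36.2 ± 3.29 FPKM in slstop1 with Al, 55.4 ± 10.8 FPKM in WT with Al, 30.9 ± 5.04 FPKM in slstop1 without Al and 29.8 ± 3.94 FPKM in WT without Al. The next gene in each ranking had r = 0.983 for NCED1 and 0.941 for TAS14.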

How the data were processed

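RNA was sequenced from 12 root libraries, grouped by their titles. A single table was deposited by the authors, with 35768 gene models in 12 columns. The deposited values are taken as FPKM. No unit is named, but they are not whole numbers and the column totals, from 696287 to 719916, differ. TopHat2, HISAT2, StringTie and Cufflinks are named, without versions or roles, in the submitters' processing notes; for the build and annotation no source used here gives a name. FPKM hides depth, so no counting interval is given.

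Member names come from the identifiers that defined them. RefSeq (assembly SLM_r2.1) holds no Solyc identifiers; it lists 8 of the 9 names, FLC as FLACCA, each on the chromosome in the identifier. The members and lists were chosen with earlier results of these data known.

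The 15903 genes that reached 1 FPKM in 3 or more libraries were fitted on log2(FPKM + 1) with limma 3.58.1 in R 4.3.3 (group means over all 12 libraries, eBayes with a trend). Calls are Benjamini-Hochberg adjusted p under 0.05. The procedure was also run on simulated data. Effects were added in WT with Al alone, only to genes whose mean log2(FPKM + 1) in WT without Al was over 2. NCED1, NCED2 and TAS14 lay below that level, which the simulation therefore did not cover. The outcome of the simulation is not given here, and no call rests on it. The named genes are the 9 members and, for NCED1 and TAS14, the most correlated gene; the rule asked for 2 each, of which the next is given by its r alone, since no annotation names it. Alternatives were pseudocounts, filters, scalings, eBayes settings, fits of 6 libraries, the replicate block and leaving out each library. Figures used matplotlib 3.10.9.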

Additional observations from a re-analysis of the deposited data

How the results depend on the processing

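The calls for Al in NCED1, NCED2 and CYP707A2 in both genotypes, and in TAS14 in WT, held in every alternative in which the gene was tested. The number of members called was 1 in each genotype with a mean of at least 5 FPKM, which removed NCED1, NCED2 and TAS14 from the test, and 5 for Al in slstop1 with quantile normalisation. For slstop1 against WT with Al it was 0 with a pseudocount of 0.1, 3 with a pseudocount of 5, 0 with a mean of at least 5 FPKM, 0 with only the 6 libraries compared, and 0 to 2 over the fits that left out 1 library each. Same-numbered libraries did not deviate together (r between -0.24 and 0.0925 in 18 pairs), so the numbers were not taken as pairs; with the replicate block 2 members were called there, TAS14 (adjusted p = 0.0356, limma) beside NCED2, and no other member call changed. Reversals concerned only differences that did not pass. For slstop1 against WT without Al they were -0.11 for TAS14 with a pseudocount of 0.1 and -0.034 for NCED2 with quantile normalisation. Leaving out a single library gave ranges of -0.12 to 0.49 for TAS14, -0.055 to 0.10 for NCED2, -0.21 to 0.22 for FLC and -0.41 to 0.60 for CYP707A2 in that comparison, -0.056 to 0.37 for FLC in the interaction and -0.20 to 0.22 for FLC for Al in WT. The causes were not tested. Low levels limit all members, and log2 differences moved with the pseudocount: between 5 and 0.1, for Al in slstop1, NCED2 ran from 0.62 to 3.07 and CYP707A2 from -1.66 to -4.14.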
